A study of Mus musculus with 8 samples.

Results

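The forkhead transcription factors were followed in single mouse embryos at embryonic day 8.5. The family was taken as every non-control probe of the microarray whose RefSeq transcript carries a gene symbol made of Fox, a letter from a to s and a number. This gave 55 probes for 44 genes, which were all 44 such genes of the RefSeq name table, among 55681 different probes on the array. The rule for membership used names only and no measured value, though it was set with earlier results of these data known. The 8 embryos were wild type for Eed and had wild-type mothers. The fathers came from a colony on a C57bl6/129 background that carries the hypomorphic l7Rn5-1989SB allele of Eed, a core subunit of the histone methyltransferase complex PRC2. Of the embryos, 4 had Eed wt/wt fathers and 4 had Eed hypo/wt fathers, with 2 females and 2 males in each group. The question was whether the genotype of the father changed expression in offspring that had not inherited the mutation. Embryos are numbered 1 to 4 within each group. Among embryos of Eed wt/wt fathers, 3 carry the same first part of their code, and the labels do not say how many fathers each group had. The paper's breeding plan lists 2 Eed wt/wt and 3 Eed hypo/wt males, while its legend for this array comparison gives n = 4 for each genotype. Embryos of a group may thus share a father. All arrays of a group shared a slide, and effects of the slide and of the paternal genotype cannot be told apart.

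Forkhead proteins share a winged-helix DNA-binding domain and are grouped into lettered classes by the sequence of that domain. In the early embryo Foxa2 acts in node, notochord, floor plate and definitive endoderm, Foxc1 and Foxc2 pattern paraxial mesoderm and vessels, Foxf1 acts in lateral plate and extraembryonic mesoderm, and Foxd3 in neural crest. Foxo proteins act downstream of insulin signalling, Foxm1 drives mitotic genes, Foxj1 drives motile cilia and Foxh1 joins Smad proteins in the Nodal response. Many genes of the family that control development are targets of PRC2 in stem cells.

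Every value below is the log2 of the processed spot intensity minus the 75th percentile of its array, so 0 is the level of the probe at that percentile. A level can be compared between embryos for the same probe but not between probes. Whole embryos were used, and fewer cells of a type and less RNA per cell cannot be told apart in such samples. The p-values measure only the spread between these embryos.

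Of the 55 probes, 39 were well above background on all 8 arrays, 15 on some arrays and 1 on no array. By gene, 31 of 44 had a probe above background on all 8 arrays, 12 reached it on 1 to 7 arrays, and Foxn1, a regulator of thymus epithelium and hair, on none. The share above background on all 8 arrays was 70.9% for forkhead probes, 65.9% for probes with a RefSeq accession and 49.5% for all probes. No forkhead spot was saturated or marked as an outlier. The array of embryo 3 of Eed hypo/wt fathers stood apart at dim probes. Of the 16 forkhead probes above background on fewer than 8 arrays, 14 were highest in that embryo, and in 8 of the 16 both that embryo and embryo 1 of Eed wt/wt fathers lay above the other 6. The same array was highest for 73.5% of all probes of that kind on the array. Its negative control spots had a log2 median of 3.17, against 2.08 to 2.94 on the other 7 arrays. These medians did not overlap between the father groups, with 2.08 to 2.31 on arrays of Eed wt/wt and 2.50 to 3.17 on arrays of Eed hypo/wt fathers. The lowest, 2.08, was that of embryo 1 of Eed wt/wt fathers, also high at dim probes. The array of that embryo had a log2 75th percentile of 9.88 and that of embryo 3 of Eed hypo/wt fathers 9.91. On the other 6 arrays it was 10.07 to 10.32, and its part in the dim values was not tested.

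**Figure D1:**
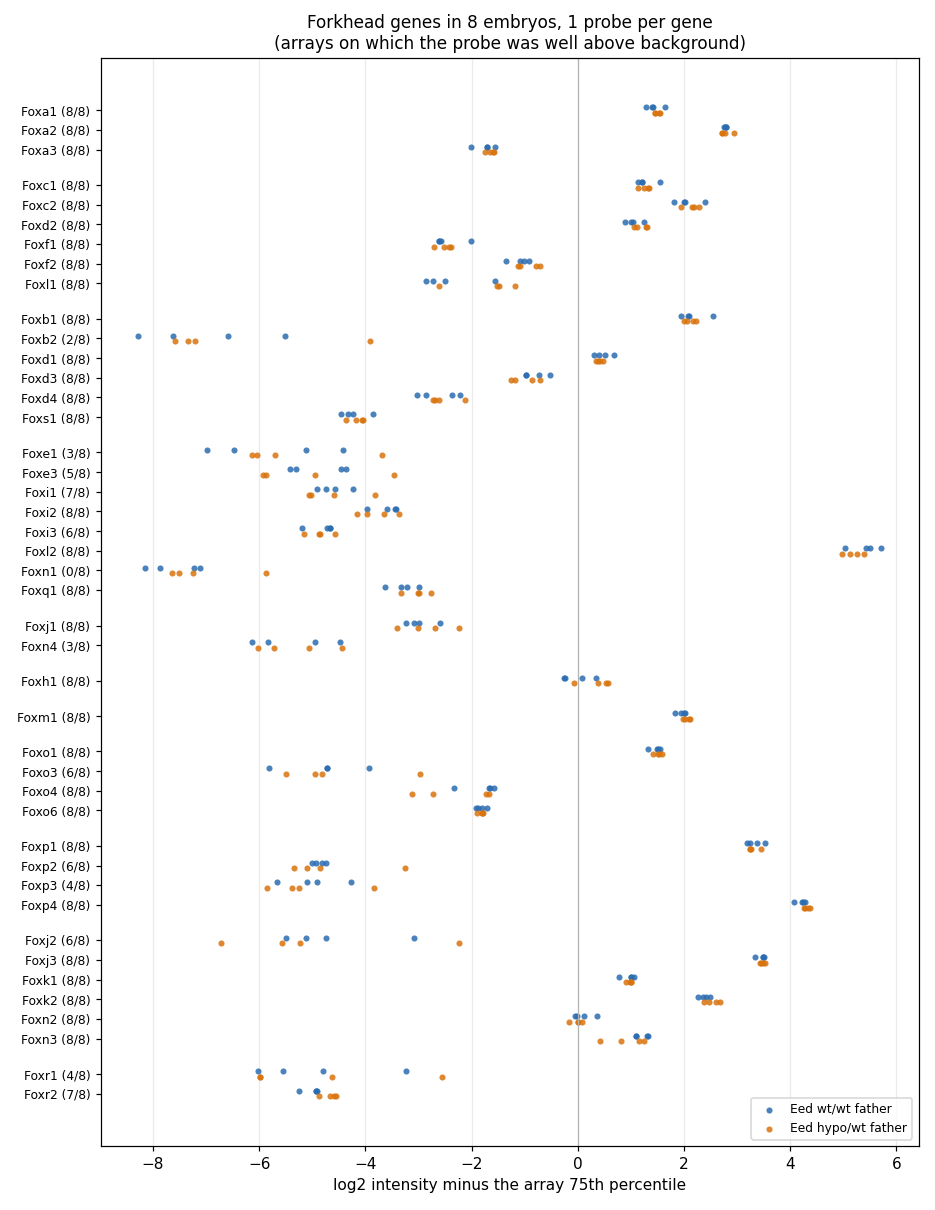
Level of 43 forkhead genes in 8 embryos, 1 probe per gene, as log2 intensity minus the 75th percentile of the array; blue points show offspring of Eed wt/wt fathers (4 embryos), orange points offspring of Eed hypo/wt fathers (4 embryos), with genes grouped by role and the number of arrays above background in brackets. Points of most genes above background on 8 arrays lie close together and mixed, while genes such as Foxj2, Foxr1 and Foxb2 spread over several log2 units with 1 orange point, embryo 3, far to the right.

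The dim members had the widest spread, and with 1 array per embryo the array and the embryo cannot be told apart. Foxj2, a broadly expressed member, stood at -3.08, -5.12, -5.49 and -4.75 in embryos of Eed wt/wt fathers and at -6.72, -5.23, -2.24 and -5.57 in embryos of Eed hypo/wt fathers. Foxr1, a member known from germ cells, stood at -3.23, -6.01, -5.55 and -4.81 and at -5.99, -4.63, -2.57 and -5.98. Foxo3, a Foxo protein that restrains proliferation and keeps ovarian follicles dormant, stood at -3.94, -4.73, -5.81 and -4.73 and at -4.81, -4.96, -2.97 and -5.49. In each of the 3, embryo 3 of Eed hypo/wt fathers was highest, embryo 1 of Eed wt/wt fathers came next, and the groups overlapped. These 3 had the largest spread within a group among tested genes, with SDs of 1.55, 1.43 and 0.95 pooled over both groups. For Foxo3 the difference between father groups was 0.25 on the log2 scale with all embryos and -0.28 without embryo 3 of Eed hypo/wt fathers. For Foxj2 it was -0.33 with all embryos and 0.18 without embryo 1 of Eed wt/wt fathers. The part of the background in these values was not tested.

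**Figure D2:**
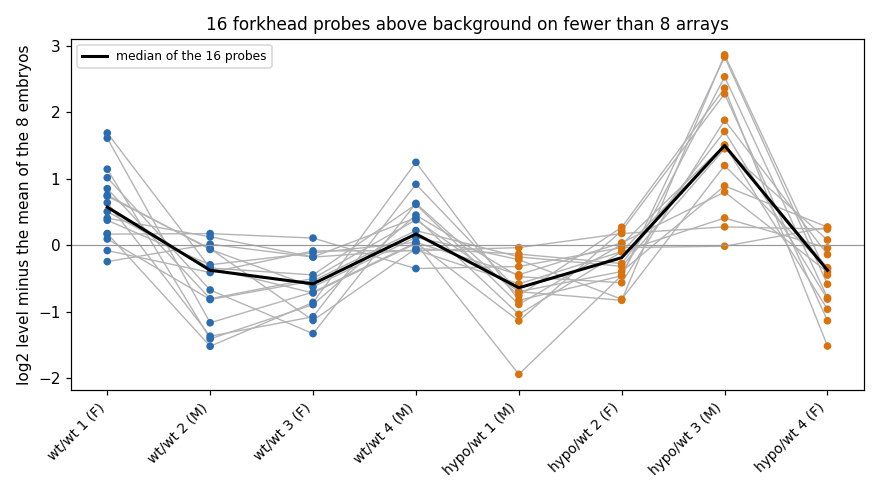
Deviation of 16 forkhead probes, those above background on fewer than 8 arrays, from their own mean over 8 embryos, on the log2 scale; each grey line is a probe, blue and orange points are embryos of Eed wt/wt and Eed hypo/wt fathers, F and M give the sex, and the black line is the median. The median lies 1.50 above the mean in embryo 3 of Eed hypo/wt fathers and 0.57 above it in embryo 1 of Eed wt/wt fathers.

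By their median SD, probes above background on all 8 arrays varied less than the dim ones. Some of them spread widely within a group, with pooled SDs of 0.61 for Foxl1, 0.57 and 0.66 for Foxo4 and 0.75 for the dimmest Foxp1 probe. The spread within a group, as the median SD over tested probes, was 0.21 for forkhead probes and 0.21 for all tested probes. For probes above background on all 8 arrays it was 0.20 in the family and 0.18 over the array, and for tested probes above background on 4 to 7 arrays it was 0.70 in the family and 0.81 over the array. Embryo 4 of Eed wt/wt fathers was highest at 30.8% of forkhead probes above background on all 8 arrays, against 11.6% of all such probes. Embryo 1 of that group was lowest at 28.2%, against 13.3%. The 3 class A genes, which specify endoderm and axial midline, were among the steady ones. Foxa2 stood at 2.75, 2.77, 2.79 and 2.79 in embryos of Eed wt/wt fathers and at 2.78, 2.71, 2.94 and 2.71 in embryos of Eed hypo/wt fathers. Foxa1 stood at 1.39, 1.29, 1.42 and 1.64 and at 1.53, 1.44, 1.46 and 1.54. Foxa3 stood at -1.55, -1.70, -1.71 and -2.02 and at -1.66, -1.76, -1.58 and -1.60. The groups overlapped for all 3, no embryo differed from another by more than 0.47 at any of them, and their differences between father groups were 0.01 to 0.10, with 95% intervals inside -0.16 to 0.35. A second Foxa2 probe differed by -0.13 (95% interval -0.32 to 0.07).

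Between father groups, 0 of 49 tested forkhead probes passed an adjusted p of 0.01 with a change of at least 2-fold in limma. Over all 33093 tested probes the number was also 0, or 0% called. At an unadjusted p under 0.05 there was 1 forkhead probe, for Foxr2, or 2.04% of those tested, against 4.35% of all tested probes. The smallest adjusted p in the family was 1.00. The 49 probes cover 40 genes; Foxb2, Foxe1, Foxn1 and Foxn4 had no probe bright enough to be tested. Of the 49 probes, 27 were higher and 22 lower in embryos of Eed hypo/wt fathers, and the median log2 fold change was 0.011, beside -0.0002 over all tested probes. When arrays were aligned on their medians, 14 were higher and 35 lower, because this scaling moved every difference by -0.10. The array of embryo 3 of Eed hypo/wt fathers had a log2 median of 6.87, against 5.84 to 6.25 on the other arrays, which weighs on this alignment. No probe reached a 2-fold difference, which 1.08% of all tested probes did. For 38 of the 49 the 95% interval lay within 2-fold in either direction, or 77.6%, against 80.1% of all tested probes. For the other 11 the interval reached past 2-fold. These were 7 probes above background on 4 to 7 arrays, the Foxl1 probe, both probes of Foxo4 and the dimmest probe of Foxp1.

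**Figure D3:**
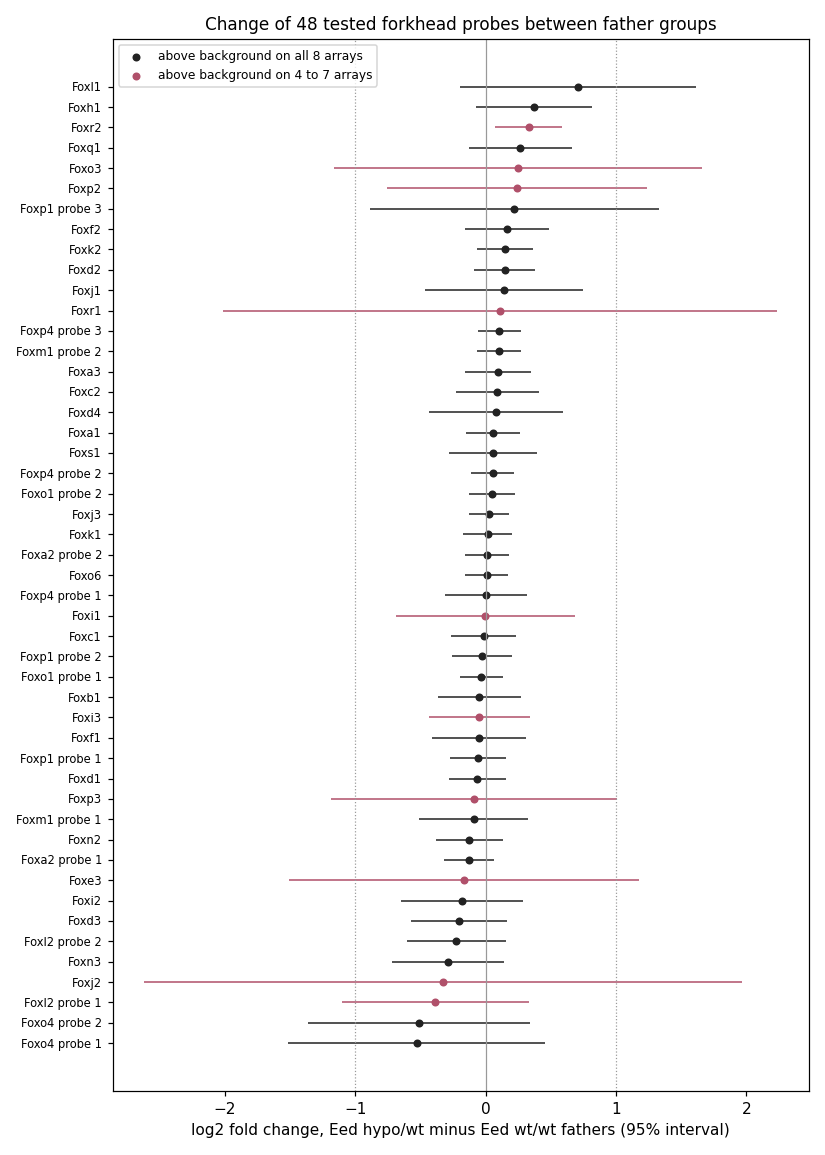
Log2 fold change of 48 tested forkhead probes, embryos of Eed hypo/wt minus embryos of Eed wt/wt fathers, with 95% intervals from limma; black marks probes above background on all 8 arrays, red those above on 4 to 7, dotted lines mark 2-fold, and probes of a gene are numbered in order of size of the difference. Only the interval of Foxr2 leaves out 0, and the widest intervals belong to dim probes such as Foxj2 and Foxr1.

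By role, 6 genes of paraxial and lateral plate mesoderm had 4 higher and 2 lower, with a median difference of 0.12. The 6 tested genes of neural plate, brain and neural crest had 3 higher and 3 lower with a median of 0.003, and the 6 tested placode, pharynx, eye and other organ regulators had 1 higher and 5 lower with a median of -0.11. The 4 Foxo genes had a median of 0.03, the 4 Foxp genes 0.04 and the 6 broadly expressed genes of classes J, K and N -0.06. None of these genes passed the test, and with arrays aligned on their medians the splits were 3 and 3, 0 and 6, and 1 and 5 for the mesoderm, neural and organ groups. The 10 members listed as known PRC targets in stem cells by the study, of which 8 were tested, had a median difference of 0.03 with 4 higher and 4 lower, beside 0.04 for the 32 tested genes outside that list, and 0 passed in either set. That split of 4 and 4 became 2 higher and 6 lower after alignment on medians.

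Foxr2, an X-linked member known as a proto-oncogene that stabilises Myc, was the one tested probe whose father groups did not overlap. It stood at -4.92, -5.25, -4.93 and -4.92 in embryos of Eed wt/wt fathers and at -4.88, -4.66, -4.56 and -4.60 in embryos of Eed hypo/wt fathers. Every embryo of Eed hypo/wt fathers lay higher, embryo 1 by the least. The group means were -5.01 ± 0.16 and -4.68 ± 0.14 (SD, n = 4 each). The log2 fold change was 0.33 with a 95% interval of 0.07 to 0.59, an unadjusted limma p of 0.019 and an adjusted p of 1.00. A share of 3.15% of all tested probes had father groups that did not overlap, 1.68% with the embryos of Eed hypo/wt fathers higher, beside 2.04% of the forkhead probes. The probe was near the detection limit, above background on 7 arrays and not on that of embryo 3 of Eed hypo/wt fathers, its highest value. The negative control spots were also higher on every array of Eed hypo/wt fathers, and their part in the difference was not tested. The unadjusted p was under 0.05 in 16 of 21 alternatives, among them each embryo left out in turn. It was not with quantile normalization (difference 0.13), normexp background correction (0.10), alignment on medians (0.23), trended moderation (0.33) or the embryo code as a random block (0.31).

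The widest difference belonged to Foxl1, a lateral plate and gut mesenchyme gene. It stood at -2.72, -2.86, -1.56 and -2.51 in embryos of Eed wt/wt fathers and at -1.53, -1.19, -1.49 and -2.62 in embryos of Eed hypo/wt fathers. The values fell into 2 levels, with 4 embryos between -2.86 and -2.51 and the other 4 between -1.56 and -1.19, a step of 0.94 or 1.92-fold with nothing between. Both levels held embryos of both groups, with 1 embryo of Eed wt/wt fathers at the upper level and 1 of Eed hypo/wt fathers at the lower. The log2 fold change was 0.71 with a 95% interval of -0.20 to 1.61. The unadjusted limma p was 0.11, and leaving out each embryo in turn moved the difference between 0.53 and 1.01. That p was 0.018 without embryo 4 of Eed hypo/wt fathers and 0.025 without embryo 3 of Eed wt/wt fathers, the 2 that crossed the levels. Without any other embryo it was 0.18 to 0.24, and the lowest adjusted limma p of all alternatives was 0.58.

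Foxo4, an X-linked Foxo gene, had the largest differences in the opposite direction. One probe stood at -1.66, -1.67, -2.33 and -1.57 in embryos of Eed wt/wt fathers and at -3.12, -2.74, -1.67 and -1.74 in embryos of Eed hypo/wt fathers. The second probe stood at -1.77, -1.82, -2.57 and -1.53 and at -3.37, -2.90, -1.62 and -1.92. At both probes the same 3 embryos were low, namely embryo 3 of Eed wt/wt fathers and embryos 1 and 2 of Eed hypo/wt fathers, and the other 5 lay within 0.39 of each other. The step between them was 0.59 at the first probe and 0.65 at the second, while the 3 low embryos themselves spanned 0.79 and 0.80. The log2 fold changes were -0.51 (95% interval -1.36 to 0.34) and -0.53 (-1.52 to 0.46). The 3 low embryos were 2 females and 1 male. Without embryo 1 of Eed hypo/wt fathers the first probe differed by -0.24, and without embryo 3 of that group by -0.73. A step of at least 0.5 that left at least 2 embryos on each side was found at 3 of 39 forkhead probes above background on all 8 arrays, the Foxl1 probe and both Foxo4 probes. That is 7.69%, against 5.44% of all probes above background on all 8 arrays.

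**Figure D4:**
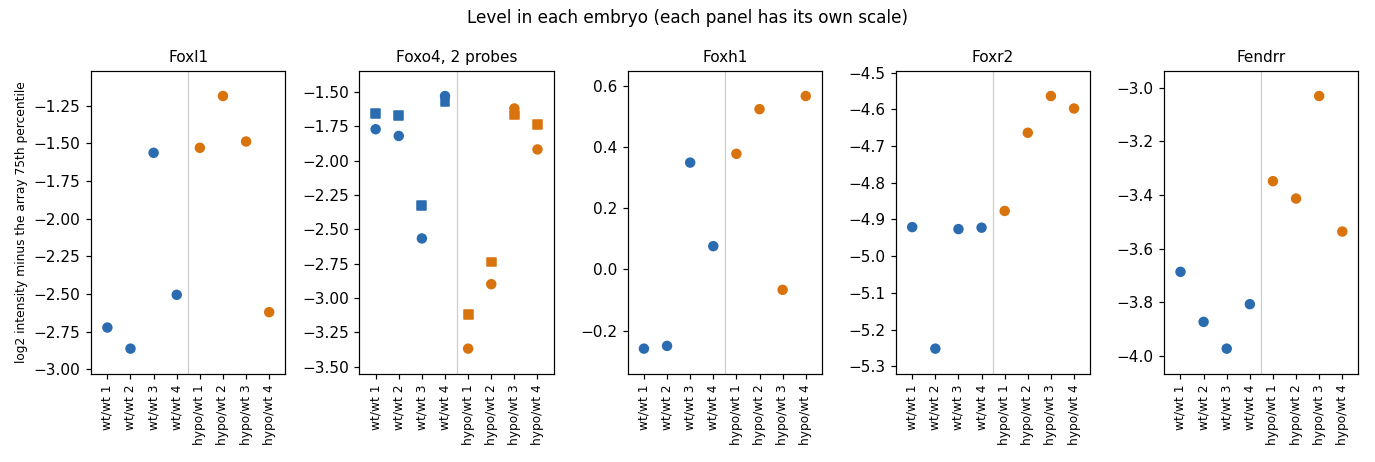
Level of Foxl1, Foxo4 (circles and squares are its 2 probes), Foxh1, Foxr2 and the long noncoding RNA Fendrr in each embryo, as log2 intensity minus the 75th percentile of the array, blue for Eed wt/wt and orange for Eed hypo/wt fathers. Foxl1 sits at 2 levels that cross the father groups and Foxo4 is low in 3 embryos from both groups, while the orange points of Foxr2 and Fendrr all lie above the blue ones.

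Foxh1, the Smad partner in Nodal signalling, stood at -0.26, -0.25, 0.35 and 0.08 in embryos of Eed wt/wt fathers and at 0.38, 0.52, -0.07 and 0.57 in embryos of Eed hypo/wt fathers. The groups overlapped through embryo 3 of Eed hypo/wt fathers, and the log2 fold change was 0.37 (95% interval -0.08 to 0.82). The unadjusted limma p was 0.092, or 0.019 without that embryo and 0.033 without embryo 3 of Eed wt/wt fathers. Without any other embryo it was 0.11 to 0.20, and the lowest adjusted limma p of all alternatives was 0.51. Foxn3, a repressor linked to the cell cycle checkpoint, stood at 1.09, 1.30, 1.09 and 1.32 and at 0.42, 0.82, 1.24 and 1.16. Embryos 1 and 2 of Eed hypo/wt fathers were the lowest 2 of the 8, and the log2 fold change was -0.29 (95% interval -0.72 to 0.14), or -0.13 without embryo 1 of Eed hypo/wt fathers. Foxd3, a neural crest and stem cell factor, stood at -0.97, -0.97, -0.74 and -0.53 and at -1.25, -1.18, -0.87 and -0.72. The same embryos 1 and 2 were lowest there, the groups overlapped, and the log2 fold change was -0.20 (95% interval -0.57 to 0.17), or -0.11 without embryo 4 of Eed wt/wt fathers.

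Genes of 2 forkhead clusters were set beside each other. In the gene order of GRCm38.p6, Foxc2 and Foxl1 are neighbours on chromosome 8 with Foxf1 next to them, 1 protein-coding gene away, and Foxq1, Foxf2 and Foxc1 follow each other on chromosome 13. Foxf1 stood at -2.58, -2.62, -2.62 and -2.02 in embryos of Eed wt/wt fathers and at -2.40, -2.70, -2.42 and -2.52 in embryos of Eed hypo/wt fathers. Foxc2 stood at 1.81, 2.00, 2.02 and 2.39 and at 2.19, 1.95, 2.15 and 2.28. Embryo 4 of Eed wt/wt fathers was the highest of all 8 for both genes, the groups overlapped, and the differences were -0.05 for Foxf1 and 0.09 for Foxc2. The 2 levels of Foxl1 had no counterpart in these neighbours, whose values spanned 0.68 and 0.58 over the 8 embryos against 1.67 for Foxl1. Fendrr, a long noncoding RNA transcribed next to Foxf1 and known to bind PRC2, stood at -3.69, -3.87, -3.97 and -3.81 in embryos of Eed wt/wt fathers and at -3.35, -3.41, -3.03 and -3.54 in embryos of Eed hypo/wt fathers. All 4 embryos of Eed hypo/wt fathers lay above all 4 of the other group, with a log2 fold change of 0.50 (SE 0.12). Its unadjusted limma p was 0.00399 and its adjusted p 1.00, so Fendrr did not pass over all probes. The unadjusted limma p was under 0.05 in 19 of 22 alternatives, among them each embryo left out in turn. The difference was 0.22 with normexp background correction (unadjusted limma p 0.064), 0.34 with quantile normalization (0.126) and 0.40 with alignment on medians (0.223). This probe is dim but was above background on all 8 arrays, and the part of the higher negative control signal on arrays of Eed hypo/wt fathers was not tested. Of the other antisense or neighbouring RNAs on the list, Foxd2os differed by 0.07 and Foxl2os by -0.23, and Foxo6os and Foxd3os had no named probe.

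On chromosome 13, Foxc1 stood at 1.14, 1.20, 1.21 and 1.55 in embryos of Eed wt/wt fathers and at 1.31, 1.24, 1.35 and 1.13 in embryos of Eed hypo/wt fathers. Foxf2, which acts in mesenchyme of palate and gut, stood at -1.09, -1.01, -1.36 and -0.93 and at -0.72, -1.13, -0.79 and -1.10. Foxq1, a regulator of stomach and hair follicle, stood at -3.63, -3.23, -3.33 and -2.99 and at -3.00, -3.33, -2.76 and -3.02. The father groups overlapped for each, and the differences were -0.01, 0.16 and 0.27, the last being 0.15 without embryo 1 of Eed wt/wt fathers.

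Between female and male embryos, with the father's genotype in the model, 0 of 49 forkhead probes passed an adjusted p of 0.01 with at least 2-fold in limma, beside 0.0332% of all tested probes. At an unadjusted p under 0.05 there were 4 forkhead probes, or 8.16%, against 3.27% of all tested probes. Of these, 2 were lower in females, a direction taken by 1.31% of all tested probes, and 2 higher, as were 1.96% of all. Foxf2 was lower in females, with -1.09, -1.36, -1.13 and -1.10 in the 4 females and -1.01, -0.93, -0.72 and -0.79 in the 4 males. Its sexes did not overlap, as for 2.58% of all tested probes, and it was the one tested forkhead probe of that kind. The female minus male difference was -0.31 with an unadjusted limma p of 0.0096 and an adjusted p of 1.00. It had an unadjusted p under 0.05 without each embryo in turn and lay between -0.37 and -0.26. With alignment on medians the difference was -0.16 with an unadjusted limma p of 0.677.

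Foxq1, the neighbour of Foxf2, stood at -3.63, -3.33, -3.33 and -3.02 in females and at -3.23, -2.99, -3.00 and -2.76 in males. A single female, embryo 4 of Eed hypo/wt fathers, reached into the range of the males, and the difference was -0.33 with an unadjusted limma p of 0.034, against -0.11 and 0.465 with normexp background correction. Foxc1, the third gene of that cluster, differed by -0.17 in the same direction with overlapping sexes. Of 6 forkhead genes of mesoderm, 5 were lower in females, with a median difference of -0.18 that became -0.03, with the same split, after alignment on array medians. The exception was Foxl1, with a female minus male difference of 0.07. Foxl2, a factor of ovary and eyelid development, stood at 5.51, 5.71, 5.39 and 5.26 in females and at 5.42, 5.02, 4.97 and 5.13 in males at its brighter probe. The female minus male difference was 0.33 with an unadjusted limma p of 0.024, and embryo 2 of Eed wt/wt fathers was the male within the female range. Between father groups this probe differed by -0.23 (95% interval -0.60 to 0.15), or -0.13 without embryo 3 of Eed wt/wt fathers. Foxs1, known from sensory neurons and pericytes, stood at -3.85, -4.24, -4.04 and -4.06 in females and at -4.32, -4.46, -4.37 and -4.18 in males, a difference of 0.29 with an unadjusted limma p of 0.035. One male lay within the range of the females there. The unadjusted limma p of Foxs1 was under 0.05 in 9 of 22 alternatives, among them 2 of the 8 with 1 embryo left out. With normexp background correction its difference was 0.21 with an unadjusted limma p of 0.194. None of the 4 passed after adjustment, and leaving out each embryo in turn gave 1 to 7 forkhead probes with an unadjusted p under 0.05; it was 1, Foxf2, without embryo 4 of Eed wt/wt fathers or embryo 2 of Eed hypo/wt fathers.

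**Figure D5:**
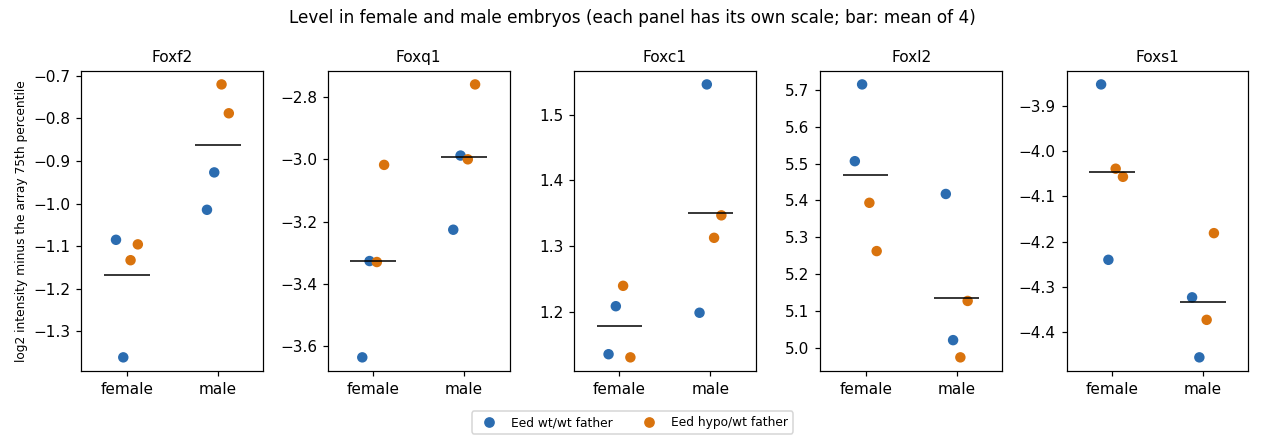
Level of Foxf2, Foxq1, Foxc1, Foxl2 and Foxs1 in 4 female and 4 male embryos, as log2 intensity minus the 75th percentile of the array; blue points are embryos of Eed wt/wt fathers, orange points embryos of Eed hypo/wt fathers, and bars are means. The sexes are apart for Foxf2 and overlap by at least 1 embryo in the other panels.

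Over the 49 probes, 33 were lower and 16 higher in females, with a median difference of -0.05, beside -0.02 for all tested probes. The share higher in females was 32.7%, beside 44.9% of all tested probes. Aligned on array medians, the split turned to 14 lower and 35 higher, since this scaling moved every difference by 0.15. Most stayed lower with normexp background correction (30 lower, 19 higher) and with quantile normalization (32 lower, 17 higher). Markers of other tissues were also read by sex, and none passed the test. All 6 primitive erythroid markers were higher in females, with a median difference of 0.45 and a mean level of 4.44 to 4.90 in females and of 4.45, 3.44, 4.46 and 4.64 in males, where embryo 4 of Eed wt/wt fathers was the one below the range of the females. All 8 yolk sac endoderm markers were higher too, with a median difference of 0.15. Their mean level was 5.45 to 5.69 in females and 5.16 to 5.55 in males, lowest again in embryo 4 of Eed wt/wt fathers. With normexp background correction 7 were higher and 1 lower, and with quantile normalization 6 and 2. Of 6 mesoderm markers, 5 were lower in females, with a median of -0.11, which became 4 higher and 2 lower after alignment on medians. Their part in the differences of Foxf2, Foxq1, Foxl2 and Foxs1 was not tested. The 95% interval of the sex difference lay within 2-fold for 39 of 49 forkhead probes, or 79.6%, and for 79.7% of all tested probes. The X-linked members gave no common direction, with female minus male differences of -0.11 for Foxo4, -0.52 for Foxp3 and 0.13 for Foxr2. For the interaction of father's genotype and sex, 0 of 49 forkhead probes passed the limma threshold, beside 0% of all tested probes, and 0 had an unadjusted p under 0.05, beside 2.22% of all tested probes.

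Of the 44 genes, 9 had more than 1 probe. The brighter probe of Foxl2 stood between 4.97 and 5.71 and was above background on all 8 arrays, while the second stood between -5.54 and -4.08 and was above background on 7. The second probe was -4.09, -4.37, -4.67 and -4.08 in embryos of Eed wt/wt fathers and -5.54, -4.59, -4.08 and -4.54 in embryos of Eed hypo/wt fathers. Its female minus male difference was 0.05 with an unadjusted limma p of 0.89, beside 0.33 at the brighter probe. A second probe of Foxo6, a Foxo gene of the brain, was above background on 1 array, and one of Foxp2, a brain and lung factor, on 3. Where both probes of a gene were tested, no pair differed by more than 0.5 in the log2 fold change between father groups. The father differences of the Foxl2 probes were -0.23 and -0.39, and the signs were opposite for the probes of Foxm1 (0.10 and -0.09), Foxo1 (0.05 and -0.03) and Foxa2 (0.01 and -0.13). They were also mixed for Foxp1, at -0.03 for its brightest probe, -0.06 for another and 0.22 for its dimmest.

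Start regions are shown for Foxr2, Foxf2 and Foxl2, the 3 members with an unadjusted p under 0.05 for father or sex that have a region in the RefSeq table used here, from 250 bases before to 50 bases after the transcription start in GRCm38.p6, with each CG dinucleotide in capitals since CG-rich starts are the usual ground of PRC2 in stem cells. They lie, for Foxr2, at chrX:153118538-153118837 (plus strand), for Foxf2 at chr13:31625566-31625865 (plus strand) and for Foxl2 at chr9:98955357-98955656 (plus strand).
Foxr2: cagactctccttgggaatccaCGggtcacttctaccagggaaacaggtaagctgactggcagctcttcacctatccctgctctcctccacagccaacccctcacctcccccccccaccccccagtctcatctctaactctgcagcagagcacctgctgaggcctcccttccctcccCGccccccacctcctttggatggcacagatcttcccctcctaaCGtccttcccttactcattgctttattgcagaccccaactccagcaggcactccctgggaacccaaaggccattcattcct
Foxf2: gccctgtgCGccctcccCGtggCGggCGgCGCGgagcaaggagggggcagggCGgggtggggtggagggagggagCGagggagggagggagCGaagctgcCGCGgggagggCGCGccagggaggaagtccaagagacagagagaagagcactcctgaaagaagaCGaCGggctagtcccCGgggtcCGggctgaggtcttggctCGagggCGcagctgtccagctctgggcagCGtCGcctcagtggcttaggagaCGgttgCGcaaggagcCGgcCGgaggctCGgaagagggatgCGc
Foxl2: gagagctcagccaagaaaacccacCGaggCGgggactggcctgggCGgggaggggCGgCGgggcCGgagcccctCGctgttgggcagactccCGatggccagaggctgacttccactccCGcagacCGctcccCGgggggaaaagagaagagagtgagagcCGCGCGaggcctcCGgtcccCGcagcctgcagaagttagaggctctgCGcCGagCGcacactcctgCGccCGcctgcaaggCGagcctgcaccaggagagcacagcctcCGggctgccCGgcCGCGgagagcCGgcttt
The Foxr2 start held 3 CG dinucleotides, and those of Foxf2 and Foxl2 held 27 each, beside a median of 7 over 32851 such regions. That of Foxl2 shared 204 bases with the region at the start of its antisense RNA Foxl2os, on the other strand. The forkhead motif TGTTTAC, searched on both strands as TGTTTAC and GTAAACA, was in none of the 3, in 1 of 33 start regions of forkhead genes, that of Foxa1, and in 3.65% of all regions. The table gave a region for 28 of 44 forkhead genes, or 63.6%, so no comparison over the family was made from it.

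Genes known to act downstream of or beside forkhead proteins were measured in the same embryos. Of 10 Foxm1 targets of mitosis, all above background on 8 arrays, 8 were higher and 2 lower in embryos of Eed hypo/wt fathers, with a median of 0.05, and the 2 probes of Foxm1 itself differed by 0.10 and -0.09. Of 10 Foxo targets, 6 were higher and 4 lower with a median of 0.03. Of 7 tested cilia targets of Foxj1, 3 were higher and 4 lower with a median of -0.03, and the dynein gene Dnaic1 was the one with an unadjusted limma p under 0.05. Of 7 tested genes of midline and endoderm around Foxa2, 4 were higher and 3 lower with a median of 0.04, and of 8 Nodal pathway partners of Foxh1, 7 were higher and 1 lower with a median of 0.03. None of the tested genes on these lists passed the threshold, and after alignment on medians the Foxm1, Foxo, Foxa2 and Nodal lists turned to 2 and 8, 1 and 9, 1 and 6, and 2 and 6, while the cilia list stayed at 3 and 4.

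Markers of tissues that the dissection could hold were also read between father groups. Levels of 6 neural and 6 mesoderm markers were above background in all embryos, with median differences of 0.01 and -0.001, and 4 of 5 notochord and gut markers were, the node gene Noto being above background on 3 arrays. Yolk sac endoderm markers, a tissue where Foxa genes are also expressed, had a mean level of 5.16 to 5.69 in embryos of Eed wt/wt and 5.39 to 5.50 in embryos of Eed hypo/wt fathers. All 6 primitive erythroid markers were higher in embryos of Eed hypo/wt fathers, with a median difference of 0.19, and none passed the test. Of 4 tested decidua and trophoblast markers, Prl8a2 was lower in every embryo of Eed hypo/wt fathers, with a difference of -2.46 on the log2 scale with an unadjusted limma p of 0.013, while Prl3d1 differed by -0.91, Ascl2 by -0.05 and Cts7 by 0.58, and Tpbpa and Cts8 were above background on no array. The part of such tissue in the forkhead values was not tested.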

How the data were processed

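Total RNA of single embryos was labelled with Cy3 and hybridised to Agilent SurePrint G3 mouse arrays, 1 array per embryo. The authors scanned the arrays and deposited Feature Extraction (version 11.0.1.1) spot intensity values, already background-subtracted, in linear units; a deposited table of the whole series held the same intensity values. Per the authors' methods, arrays were shifted to a percentile. Here the log2 intensity minus the 75th percentile of each array was used, with outlier spots left out, and probes were named through RefSeq accessions (27235 of 28685 matched). Probes entered the tests if 4 or more of the 8 arrays had them well above background and they lay outside the lowest 20%. limma 3.58.1 (R 4.3.3) was fitted over all 33093 tested probes, with Benjamini-Hochberg adjustment, for father, sex with father as a term, and their interaction; the script was tested on simulated data. The number of arrays limits the precision. A gene was represented by its brightest tested probe. Named with values were tested probes whose father groups did not overlap or with an unadjusted p under 0.05 for father or sex, the 5 largest differences each way, the 3 largest spreads, the Foxa genes and both clusters. Members, lists and tests were chosen with earlier results of these data known. Protein sequences were not analysed here. Alternatives covered background correction, scaling, filters, covariates, blocks, weights and each embryo left out. One gene of the family is counted but not reported by itself here or plotted.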

Additional observations from a re-analysis of the deposited data

Results flagged for a closer look

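Among 80 sets of 4 embryos (40 tested genes in 2 father groups), 6 had 1 embryo set apart from the others by a gap that exceeds the limit for 4 values at the 95% level, where chance gives about 4, or 1 in 20. Embryo 4 of Eed wt/wt fathers was high for Foxf1 at -2.02, with a gap of 0.929 of the range of its group, and low for Foxi3, a placode factor, at -5.19 with 0.872. Embryo 1 of that group was low for Foxj3 at 3.33 with 0.833, embryo 3 was low for Foxo4 at -2.33 with 0.87, and embryo 2 was low for Foxr2 at -5.25 with 0.984. Embryo 4 of Eed hypo/wt fathers was high for Foxp1 at 3.46 with 0.857. The Foxr2 group means moved closer without embryo 2, to a difference of 0.25 from 0.33.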

How the results depend on the processing

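The count of 0 forkhead probes passing the threshold held for father, sex and their interaction under all alternatives run, also at an adjusted p under 0.05 without a fold limit. The unadjusted counts moved. For father the 1 probe became 0 with normexp, median alignment, quantile normalization, the filter on all 8 arrays, the embryo code as a random block and trended moderation, 3 with array weights, and 1 to 3 without 1 embryo. For sex the 4 probes became 2 with normexp, quantile normalization or no filter, 0 with median alignment, and 1 to 7 without 1 embryo. The median father difference of 0.0108 became -0.0341 with normexp, -0.0918 with median alignment and -0.0403 with quantile normalization, and lay between -0.0422 (without embryo 3 of Eed hypo/wt fathers) and 0.0303 without 1 embryo. The median spread of 0.2129 became 0.5108 with median alignment and lay between 0.1773 and 0.2268 without 1 embryo, and 39 or 40 probes were above background on all arrays, or 51 when a positive and significant signal was asked for instead. Of 10 named father differences under 217 alternatives, 213 kept their sign. Foxj2 reversed to 0.1825 without replicate 1 of Eed wt/wt and 0.2672 without replicate 1 of Eed hypo/wt fathers, and Foxo3 to -0.0897 without replicate 3 of Eed wt/wt and -0.2834 without replicate 3 of Eed hypo/wt fathers. Without 1 embryo, Foxj2 lay between -1.2269 and 0.2672 and Foxo3 between -0.2834 and 0.5581. The cause was not tested. Deviations of same-numbered embryos from their group means had correlations from -0.587 to -0.0452. With 1 such value per replicate number, whether the numbers pair the embryos cannot be decided. With the replicate block there were 0 calls, 1 unadjusted father probe and 3 for sex, and the interaction could not be fitted. Dim probes limit what could be seen: 16 of 55 were above background on fewer than 8 arrays.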
